A study of Xenopus laevis with 30 samples.

Results

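The Pax genes pax2, pax3, pax6 and pax7 were followed through the brain of Xenopus laevis tadpoles, over 4 regions at stages 46 and 49 and over the midbrain from stage 44 to stage 66. X. laevis carries most genes as a pair of copies, named .L and .S after the longer and shorter of its paired chromosomes. The members are the rows of the count table whose name, without .L or .S, is one of these 4 symbols. Of the 8 names that this gives, 7 were among the 49109 genes of the table, namely pax2.L and both copies of pax3, pax6 and pax7, and pax2.S was not analysed here. All 7 passed the filter on low counts in every comparison.

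Pax proteins are transcription factors that bind DNA through a paired domain, in many of them together with a homeodomain, and in vertebrate embryos they mark territories of the neural tube. Pax6 marks progenitors of the forebrain, the retina and much of the ventricular zone, and Pax3 and Pax7 are closely related genes of the dorsal neural tube, with Pax7 a long-used marker of the dorsal midbrain, from which the optic tectum arises. Pax2, with Pax5 and Pax8, belongs to a subfamily known for its part at the midbrain-hindbrain boundary and, later, in interneurons of the hindbrain and spinal cord.

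The tadpoles were albino X. laevis of both sexes, staged after Nieuwkoop and Faber, and the labels name no treatment, allele or age beyond the stage. Midbrain was sampled at stages 44, 46, 49, 55, 61 and 66, and forebrain, hindbrain (with the rhombic lip) and spinal cord at stages 46 and 49. By the study's account the stage 46 forebrain was subcortical. Each group had 3 samples, or 2 at stage 49 and 1 at stage 66, for 30 samples in all. The study describes its 3 samples per group as biological replicates, but gives no such description for stages 49 and 66, so p values there may measure only technical spread. How many animals went into a sample is not given in the sources used here, and the RNA was amplified to cDNA before library preparation.

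The gene counts of a sample summed to between 1762544 and 11016124 reads. In 10 of the 30 libraries, replicate 3 of forebrain, hindbrain and spinal cord at stage 46 and 7 of the 8 stage 49 libraries (all but midbrain replicate 1), more genes were detected at equal depth, 42827 to 46638 against 27610 to 32644 in the other 20. The 5 rows of pax1.S, pax4.L, pax9.L, pax10.L and pax10.S, which had 0 to 1.67 CPM (counts scaled to a common library size) in the 20 libraries, had 1.12 to 11.6 CPM in the 10, with a median of 3.80. A Pax copy at a few CPM in one of these 10 libraries is therefore at the level of Pax genes that are otherwise close to 0 in these tissues. The 15 hox rows of hindbrain and spinal cord summed to 0.111 to 0.632 CPM in midbrain, where 11 of them were at 0 in all 3 samples, 95.4 to 160 CPM in hindbrain and 266 to 419 CPM in spinal cord at stage 46. In forebrain they summed to 0.884 to 47.1 CPM at stage 46 and 51.2 to 71.0 CPM at stage 49, and in midbrain at stage 49 to 4.53 and 39.6 CPM, with the higher values in libraries with more genes detected. The 12 forebrain markers summed to 630 to 1228.5 CPM in forebrain and 311 to 361 CPM in midbrain at stage 46. Stage 46 spinal cord also held 2766 to 3583 CPM of cartilage and skin markers, against 367 to 770 CPM in the other 3 regions. CPM values were scaled by TMM over all 30 samples and are given per library, without correction for gene length.

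To ask where each copy was expressed at a single stage, the 4 regions were compared at stage 46. The copies of pax2, pax3 and pax7 were low in forebrain, pax7 was highest in midbrain, pax2.L was highest in hindbrain and spinal cord, and pax3 was spread over all 3 regions behind the forebrain. Both pax6 copies had their highest mean in forebrain. A gene was called when its log2 fold change exceeded 2 in size and its adjusted p (edgeR's quasi-likelihood test with Benjamini-Hochberg adjustment over all genes tested) was below 0.05, the thresholds of the study. By this rule 4 of the 7 copies (pax2.L, pax3.L, pax3.S and pax7.L) were called in at least 1 of the 6 pairs of regions, as were 5.62% of the 34485 genes tested. This fit did not pair samples by their replicate number, and calls that changed in a fit that did are given below. Replicate 3 of forebrain was one of the 10 libraries with more genes detected, so each result was also computed without the 3 replicate 3 libraries. In these 9 samples 5 copies, the same 4 and pax7.S, were called, where 12.6% of 27407 genes were.

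By pair, 3 copies were called between midbrain and forebrain (0.916% of all genes), 4 between hindbrain and forebrain (1.28%) and 3 between spinal cord and forebrain (3.36%), all of them lower in forebrain. Between spinal cord and midbrain 1 copy was called (3.84% of all genes). DESeq2 called 4, 4, 3 and 3 copies in these pairs, in the same order. Between hindbrain and midbrain (0.821%) and between spinal cord and hindbrain (1.07%) edgeR called 0 copies, with 4 and 0 at an unadjusted p below 0.05, and DESeq2 called 1 and 0. Of the 34485 genes tested by edgeR, 4486 and 5036 had an unadjusted p below 0.05 in these pairs. DESeq2 called 5 of the 7 copies in some pair of stage 46 regions, as it did 5.99% of 49109 genes. That base is every gene of the count table, without the filter on low counts, so this share is not like that of edgeR.

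**Figure D1:**
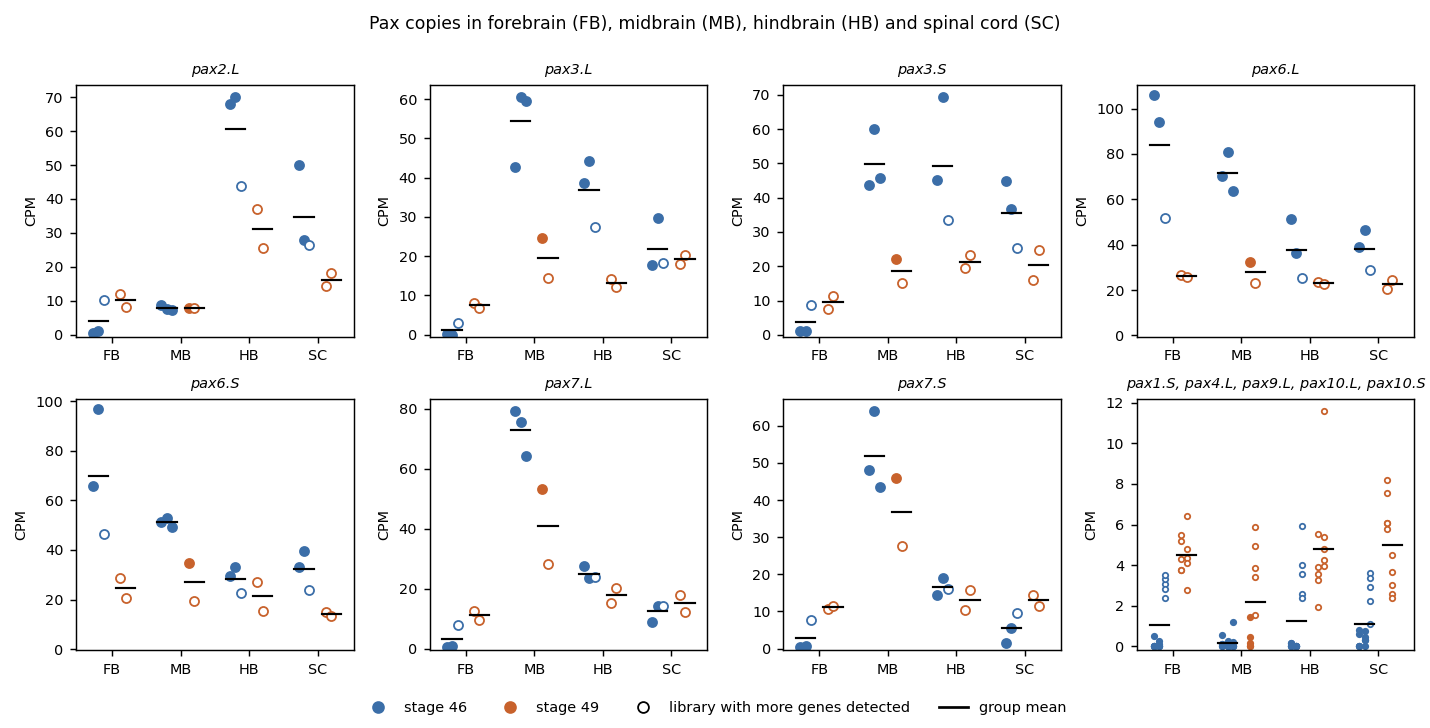
Level of each Pax copy in CPM (vertical axes, linear, 1 panel per copy) in forebrain (FB), midbrain (MB), hindbrain (HB) and spinal cord (SC) at stages 46 (blue) and 49 (orange), 1 point per sample with the group mean as a bar. Open points are the 10 libraries with more genes detected, and the last panel shows 5 Pax rows that lie between 0 and 1.67 CPM in the other libraries, so that forebrain points of pax2.L, pax3 and pax7 can be read against it.

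pax2.L, the only pax2 copy measured, was at 68.1, 70.0 and 43.9 CPM in the 3 hindbrain samples and at 50.1, 27.9 and 26.5 CPM in spinal cord. In midbrain the 3 samples had 8.91, 7.58 and 7.32 CPM, and in forebrain 0.520, 1.14 and 10.1 CPM, the last of them the library in which the 5 otherwise low Pax rows had 2.36 to 3.53 CPM. Hindbrain and spinal cord samples overlapped each other and lay above every midbrain and forebrain sample, while midbrain and forebrain overlapped through that 1 library. Against forebrain pax2.L was higher by 4.02 ± 0.80 on the log2 scale (SE, adjusted p = 0.021) in hindbrain and by 3.20 ± 0.79 (adjusted p = 0.0283) in spinal cord. Both calls were lost when some single libraries were left out: 5 of 12 for hindbrain (adjusted p up to 0.078) and 10 of 12 for spinal cord (up to 0.0958). In the 9 samples without replicate 3 they were 6.29 ± 0.42 (adjusted p = 1.48e-09) and 5.44 ± 0.42 (4.42e-09). With forebrain replicate 3 alone left out, hindbrain exceeded forebrain by 6.18. With the replicate number as a block, both calls were lost (4.15, adjusted p = 0.0567 in hindbrain and 3.30, adjusted p = 0.0622 in spinal cord).

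Against midbrain, pax2.L differed by 3.01 ± 0.71 (adjusted p = 0.085) in hindbrain and by 2.19 ± 0.70 (adjusted p = 0.0772) in spinal cord, neither of which passed by edgeR. DESeq2 called both (3.08, adjusted p = 0.0138, and 2.27, adjusted p = 0.0484). With 1 library left out, edgeR called the hindbrain difference in 3 of 12 fits and the spinal cord difference in 2 of 12. In the 9 samples these were 3.14 ± 0.27 (adjusted p = 1.03e-07) and 2.30 ± 0.27 (2.05e-06), and there midbrain also exceeded forebrain by 3.15 ± 0.43 (4.1e-05). Of the tissues outside the brain that use pax2, 8 kidney marker rows summed to 49.5 to 122 CPM in forebrain, 26.4 to 48.0 in midbrain, 15.6 to 94.7 in hindbrain and 73.7 to 117 in spinal cord. The 4 inner ear rows summed to 10.9 to 48.8, 5.67 to 9.87, 15.4 to 40.9 and 39.2 to 79.4 CPM in the same order. The part of these tissues in the pax2.L levels was not tested.

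pax3, a gene of the dorsal neural tube and neural crest, was close to absent from 2 of the 3 forebrain libraries. pax3.L had 0.173, 0 and 3.06 CPM in forebrain, which are 1, 0 and 13 counts, against 42.8, 60.5 and 59.5 CPM in midbrain, 38.5, 44.2 and 27.4 CPM in hindbrain and 17.6, 29.6 and 18.2 CPM in spinal cord. pax3.S had 1.21, 1.14 and 8.72 CPM in forebrain, 43.7, 60.0 and 45.8 CPM in midbrain, 45.1, 69.4 and 33.5 CPM in hindbrain and 44.8, 36.7 and 25.4 CPM in spinal cord. For both copies every forebrain sample lay below every sample of the other regions.

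Both pax3 copies were called in each of the 3 pairs with forebrain. For pax3.L the log2 fold change over forebrain was 5.87 ± 0.74 (SE, adjusted p = 0.001) in midbrain, 5.38 ± 0.75 (adjusted p = 0.00129) in hindbrain and 4.61 ± 0.75 (0.0016) in spinal cord. For pax3.S it was 3.75 ± 0.65 (0.00953), 3.81 ± 0.65 (0.00606) and 3.32 ± 0.65 (0.00598). These 6 calls stood in every alternative tried, each single library left out included. Over replicates 1 and 2 the midbrain to forebrain ratio of pax3.L rested on 849 counts against 1 and was 702 (95% exact interval of counting error 126 to 27756), with 573 (102 to 22669) for hindbrain and 326 (58.0 to 12904) for spinal cord.

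Among the 3 regions behind the forebrain no pax3 difference passed the test. pax3.S in hindbrain differed from midbrain by 0.06 (95% interval -0.97 to 1.09), so a difference of either sign within that width was not resolved. pax3.L was lower in spinal cord than in midbrain by values that did not overlap, with a log2 fold change of -1.26 ± 0.52 (adjusted p = 0.157), and -1.21 ± 0.27 (adjusted p = 0.00184) in the 9 samples, short of the fold threshold. Skeletal muscle, which uses pax3 and pax7 in its progenitors, was represented by 17 marker rows that summed to 236 to 588 CPM in spinal cord, 88.4 to 321 in hindbrain, 33.1 to 95.9 in forebrain and 15.2 to 33.1 in midbrain. The part of muscle in the pax3 and pax7 levels was not tested.

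pax7, the paralog of pax3, was highest in midbrain in both copies. pax7.L was at 79.4, 75.5 and 64.4 CPM in midbrain, 27.6, 23.5 and 23.9 CPM in hindbrain, 9.05, 14.4 and 14.1 CPM in spinal cord and 0.520, 0.884 and 8.01 CPM in forebrain. No sample overlapped between any 2 regions. pax7.S followed the same order of means, with 48.1, 64.0 and 43.5 CPM in midbrain, 14.5, 18.9 and 16.1 CPM in hindbrain, 1.40, 5.63 and 9.65 CPM in spinal cord and 0.346, 0.632 and 7.77 CPM in forebrain. Its spinal cord and forebrain samples overlapped.

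pax7.L was called in 3 pairs: midbrain over forebrain by 4.56 ± 0.73 (SE, adjusted p = 0.00691), hindbrain over forebrain by 3.11 ± 0.72 (adjusted p = 0.0415) and spinal cord under midbrain by a log2 fold change of -2.48 ± 0.62 (adjusted p = 0.0251). The first stood in every alternative. The hindbrain call was lost in 11 of the 12 fits with 1 library left out (adjusted p up to 0.128), with forebrain replicate 3 the exception, and the spinal cord call in 6 of 12 (up to 0.0938). The hindbrain call was also lost with the replicate number as a block (3.25, adjusted p = 0.0617). With both pax7 copies summed, midbrain over forebrain was called (4.30, adjusted p = 0.0392). Hindbrain over forebrain (2.80, 0.169) and spinal cord under midbrain (-2.71, 0.0588) were then not called. pax7.S had similar fold changes with wider errors, 4.16 ± 0.98 (adjusted p = 0.0688) for midbrain over forebrain and -3.17 ± 0.90 (0.0523) for spinal cord against midbrain. It was called in none of the pairs by edgeR and in 2 by DESeq2, which called 5.99% of 49109 genes in some pair.

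In the 9 samples without replicate 3, both pax7 copies were called in midbrain, hindbrain and spinal cord over forebrain and in spinal cord under midbrain. The midbrain over forebrain difference was then 6.60 ± 0.38 for pax7.L (adjusted p = 2.11e-10) and 6.61 ± 0.53 for pax7.S (2.58e-08), and the spinal cord values relative to midbrain were -2.65 ± 0.26 (1.41e-07) and -3.88 ± 0.40 (3.16e-07). pax7.S was also lower in spinal cord than in hindbrain (-2.27 ± 0.42, adjusted p = 0.000745), where pax7.L was at -1.15 ± 0.27 (adjusted p = 0.00612). Hindbrain relative to midbrain was at -1.49 ± 0.24 for pax7.L and -1.61 ± 0.34 for pax7.S, with adjusted p of 0.000317 and 0.00475 but under the fold threshold.

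pax6, which in vertebrates patterns the forebrain and eye and marks neural progenitors, was the one gene of the 4 without a region where it was near 0. pax6.L was at 106, 94.0 and 51.6 CPM in forebrain, 70.5, 80.7 and 63.9 CPM in midbrain, 51.4, 36.4 and 25.3 CPM in hindbrain and 38.9, 46.5 and 28.96 CPM in spinal cord. pax6.S was at 65.8, 96.8 and 46.6 CPM, 51.3, 52.9 and 49.4 CPM, 29.3, 33.3 and 22.4 CPM, and 33.2, 39.4 and 24.02 CPM in the same regions. The lowest value in forebrain, hindbrain and spinal cord came each time from replicate 3, a library with more genes detected, whose 7 neuronal marker rows also had the lowest sum of its region.

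No pax6 copy was called. Relative to forebrain, hindbrain was at -1.15 ± 0.26 (SE, adjusted p = 0.0154) for pax6.L and -1.29 ± 0.23 (adjusted p = 0.00255) for pax6.S, and spinal cord at -1.16 ± 0.26 (0.0064) and -1.14 ± 0.23 (0.00294), all past the p threshold and short of the fold. Forebrain and midbrain overlapped for both copies, and the midbrain value relative to forebrain was -0.30 (95% interval -0.80 to 0.20) for pax6.L and -0.53 (-0.97 to -0.08) for pax6.S, with adjusted p of 0.564 and 0.325. Across all genes tested the median log2 fold change of midbrain relative to forebrain was -0.18. The 16 retina and photoreceptor marker rows summed to 6.58 to 74.9 CPM in forebrain and 64.0 to 148 CPM in midbrain, and their part in the pax6 level was not tested.

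**Figure D2:**
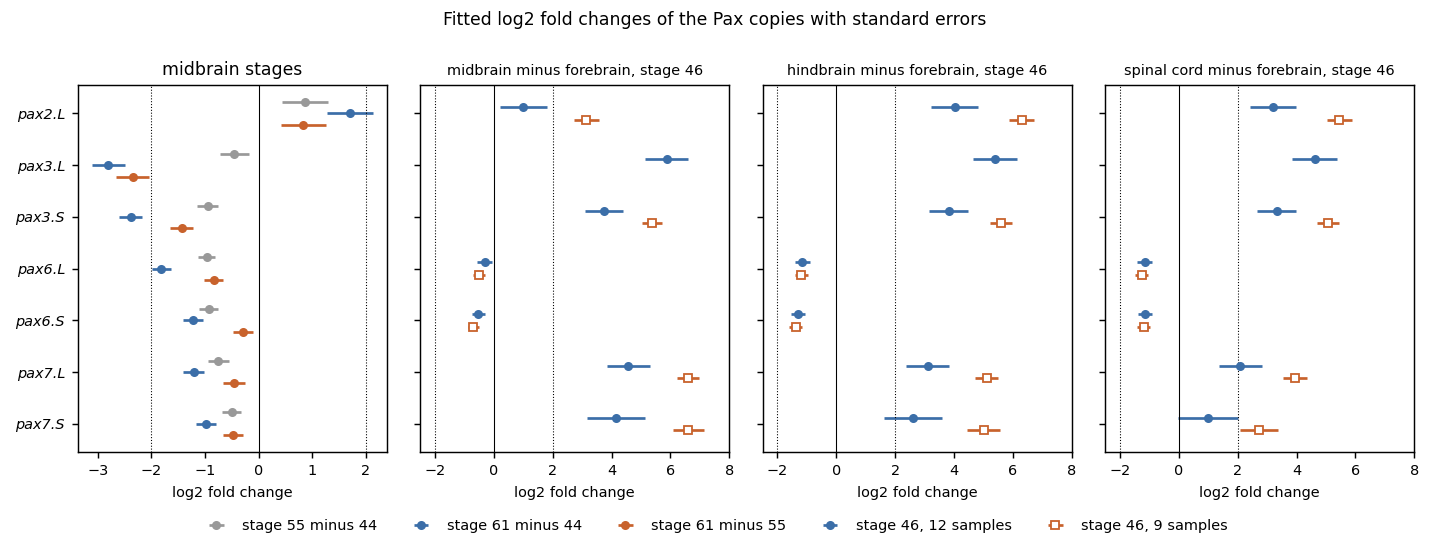
Fitted log2 fold changes (horizontal axes, with 1 standard error) of the 7 copies between midbrain stages (left) and of midbrain, hindbrain and spinal cord minus forebrain at stage 46 (right), with dotted lines at the fold threshold of 2. Blue circles at stage 46 are all 12 samples and open squares the 9 samples without replicate 3 of forebrain, hindbrain and spinal cord, where pax2.L, pax3.S and pax7 lie further from 0 while pax6 lies between -1.37 and -1.14 in hindbrain and spinal cord in both sets (pax3.L, with 1 forebrain count in the 9 samples, has no square).

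Among the other Pax genes of the table, 7 rows, pax8.L, a relative of pax2.L, was likewise highest in hindbrain and spinal cord. It was called in 4 pairs, with 34.5 ± 6.84 CPM (SD, n = 3) in hindbrain, 22.4 ± 5.12 in spinal cord, 1.34 ± 2.11 in forebrain and 0.0370 ± 0.0640 in midbrain, the last being 1 count over 3 samples. pax5.L, the third of this subfamily, was at 16.3 to 29.1 CPM in hindbrain, 13.3 to 15.4 in midbrain, 7.02 to 10.1 in spinal cord and 2.53 to 10.8 in forebrain and was called in no pair (hindbrain over forebrain 1.80 ± 0.43, adjusted p = 0.0226). The remaining 5 rows are the ones near 0 named above.

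Midbrain-hindbrain boundary genes, a list of 16 rows, held 6 that were higher in hindbrain than in forebrain, among them en1.L (5.89 ± 0.99) and en2.S (4.43 ± 0.98), and 1 higher in midbrain than in forebrain, en1.L (4.67 ± 0.99). otx2.L, which ends at this boundary, was lower in hindbrain (-3.62 ± 0.36) and in spinal cord (-6.01 ± 0.44) than in midbrain. Of 18 dorsal neural tube rows, 5 were lower and 1 higher in spinal cord than in midbrain, among them the zinc finger gene zic1.L (-2.51 ± 0.31) and gdf7.S (3.62 ± 1.06), which encodes a roof plate signal. The rhombic lip gene olig3.S was higher in hindbrain than in midbrain (3.86 ± 0.39). The median of the dorsal list was 0.92 between spinal cord and midbrain, of the opposite sign to most of its calls, against 0.26 over all genes. Of 33 rows of genes that share or border pax6 domains, 8 were higher and 5 lower in midbrain than in forebrain, with the cortical gene emx1.S (-5.77 ± 0.99) and irx3.S (5.06 ± 0.35) among them. The median log2 fold change of that list was 0.56, against -0.18 over all genes. emx1.S was at 51.4 ± 13.3 CPM (SD, n = 3) in forebrain, although the study describes these samples as subcortical. Which part of the forebrain they held was not tested. Of all genes tested, 1.28% were called between hindbrain and forebrain and 0.916% between midbrain and forebrain. Between spinal cord and midbrain 3.84% were called, and between hindbrain and midbrain 0.821%.

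The same 4 regions were compared at stage 49, with 2 samples per region. No Pax copy was called in any of the 6 pairs, where 0.755% of 35609 genes were called in at least 1. By edgeR 5 of the 7 copies had an unadjusted p below 0.05 in some pair. DESeq2 called 0 copies, and 1.23% of 49109 genes in some pair. In a single pair, 832 to 5799 of the 35609 genes had an unadjusted p below 0.05 by edgeR. With 2 samples per region the error of a log2 fold change was 0.28 to 0.38 for these copies.

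pax2.L was again highest in hindbrain, at 37.0 and 25.5 CPM, followed by spinal cord at 14.2 and 18.2, forebrain at 12.1 and 8.26 and midbrain at 7.90 and 7.89 CPM. Hindbrain exceeded midbrain by 2.06 ± 0.33 (SE, adjusted p = 0.0991). This difference was called without midbrain replicate 1 (2.04, adjusted p = 0.00116), where 1.26% of all genes were called in some pair and the 1 midbrain sample left is assumed to vary like the others.

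pax7 was again highest in midbrain, with 53.4 and 28.3 CPM for pax7.L and 45.9 and 27.5 CPM for pax7.S. In the other regions the samples lay between 9.63 and 20.4 CPM for pax7.L and between 10.4 and 15.8 CPM for pax7.S, below both midbrain samples. The midbrain over forebrain difference was 1.80 ± 0.37 (adjusted p = 0.195) for pax7.L and 1.65 ± 0.35 (adjusted p = 0.199) for pax7.S. Without midbrain replicate 2, which leaves the only stage 49 library without more genes detected to stand for midbrain, 37.5% of 37144 genes were called in some pair, so the calls of pax2.L and pax7.L in that fit cannot be read as regional differences.

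pax3 in the stage 49 forebrain was at 8.05 and 6.88 CPM for pax3.L and 7.48 and 11.5 CPM for pax3.S, and in the other regions between 12.2 and 24.6 CPM and between 14.999 and 24.7 CPM. The largest difference from forebrain was 1.45 ± 0.34 for pax3.L in spinal cord (adjusted p = 0.159). pax6 lay between 20.6 and 32.5 CPM for pax6.L and between 13.5 and 34.7 CPM for pax6.S over the 4 regions, with log2 fold changes between -0.18 and 0.04 for pax6.L and between -0.75 and 0.06 for pax6.S. Within stage 49 the forebrain mean was not the highest for pax6, and forebrain was not near 0 for the other genes. The higher midbrain means of pax6.L and pax6.S came from midbrain replicate 1 (32.5 and 34.7 CPM). It was the only stage 49 library without more genes detected. Midbrain replicate 2 had 23.04 and 19.3 CPM, below the forebrain means of 26.2 and 24.7 CPM. Both forebrain libraries of this stage had more genes detected. Neither stage nor, for pax6, this order of forebrain and midbrain can therefore be told apart from library type.

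The forebrain values of pax2.L, pax3 and pax7 at stage 49, 6.88 to 12.7 CPM, were measured in libraries where the 5 otherwise low Pax rows had 2.75 to 6.42 CPM. The hox markers of hindbrain and spinal cord summed to 51.2 to 71.0 CPM in these 2 forebrain libraries, against 0.884 to 47.1 CPM in forebrain at stage 46, and the 12 forebrain markers to 325 to 369 CPM, against 630 to 1228.5 CPM. No test was made between stages 46 and 49 in forebrain, hindbrain or spinal cord, where 1 of 3 libraries at stage 46 and both libraries at stage 49 had more genes detected.

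To follow the copies over development, midbrain was compared between stages 44, 46, 55 and 61, with 3 samples each. Both copies of pax3, pax6 and pax7 were lower at stage 61 than at stage 44, with no overlap between the samples, and pax2.L was higher. All 7 copies had an adjusted p below 0.05 by edgeR in this pair, as had 9682 of the 26681 genes tested. How many of all genes did not overlap between these stages was not counted. The fold threshold was passed by pax3 alone. pax3.L and pax3.S, 2 of the 7 copies, were called in at least 1 of the 6 pairs of stages, as were 10.8% of the 26681 genes tested. Between stages 61 and 44, and between stages 61 and 46, these 2 copies were called (7.91% and 7.83% of all genes), and between stages 61 and 55 pax3.L (3.33%).

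Between stages 46 and 44 (0.00375% of all genes), 55 and 44 (2.61%) and 55 and 46 (2.29%) edgeR and DESeq2 called 0 copies, and 0, 5 and 4 had an unadjusted p below 0.05 in edgeR. Of the 26681 genes tested, 1647, 8064 and 8054 had an unadjusted p below 0.05 in these pairs. DESeq2 called 6.98% of 49109 genes in some pair of the 4 stages. The median log2 fold change of the 7 copies was -1.22 between stages 61 and 44, against 0.00 over all genes tested. In a bulk sample fewer cells that express a gene and less RNA per cell cannot be told apart.

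**Figure D3:**
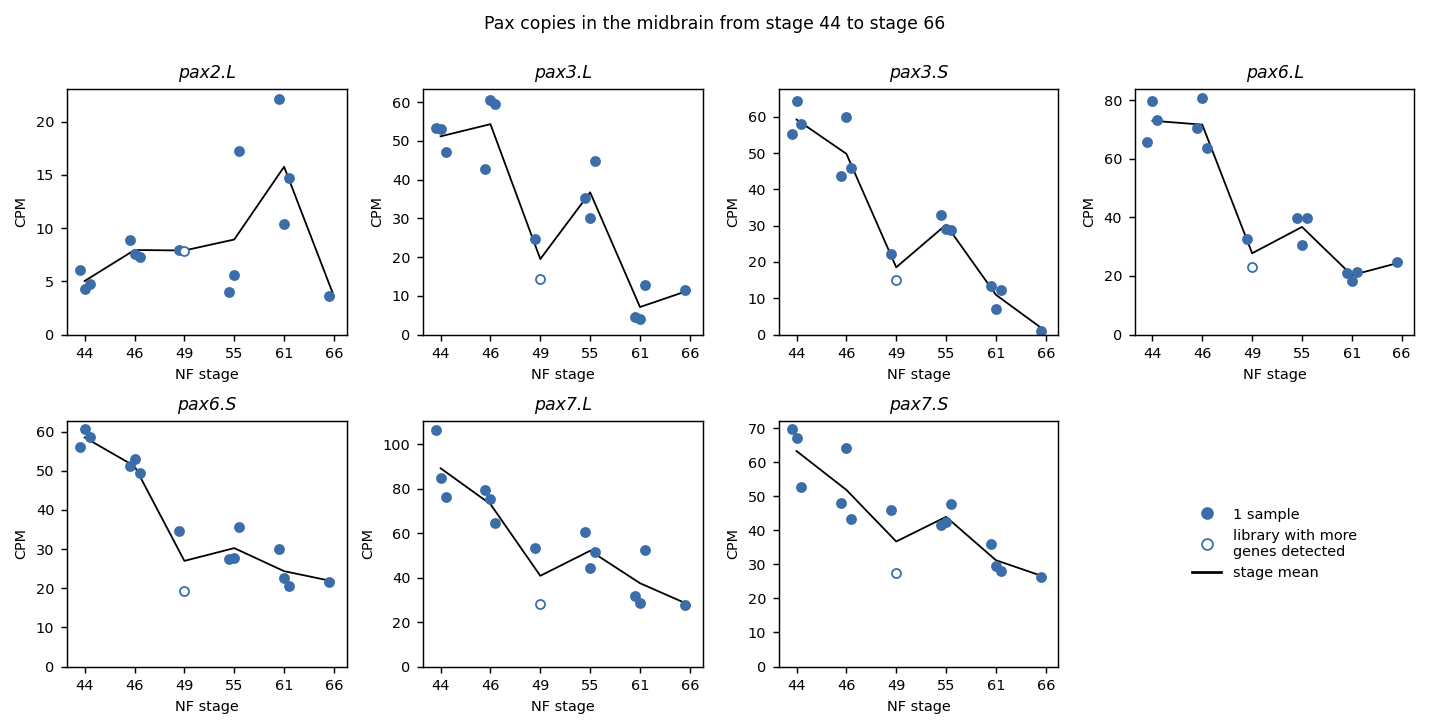
Level of each Pax copy in CPM (vertical axes from 0, 1 panel per copy) in the midbrain at stages 44, 46, 49, 55, 61 and 66 (horizontal axis, evenly spaced), with 1 point per sample and a line through the stage means. The open point at stage 49 is a library with more genes detected, and stage 66 is 1 sample. The pax3 means are lowest at stage 61 among the stages with 3 samples, those of pax6 and pax7 are lower at stages 55 and 61 than at stage 46, and that of pax2.L is highest at stage 61.

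pax3.L was at 53.2, 53.1 and 47.1 CPM at stage 44, 42.8, 60.5 and 59.5 at stage 46, 35.1, 30.1 and 44.9 at stage 55 and 4.63, 3.97 and 12.7 at stage 61. Stage 55 lay below stage 44 without overlap but did not pass the test (-0.46 ± 0.27, adjusted p = 0.27). By stage 61 the level had fallen, with a log2 fold change of -2.81 ± 0.31 (SE, adjusted p = 6.81e-07) relative to stage 44, -2.91 ± 0.31 (4.44e-07) relative to stage 46 and -2.35 ± 0.31 (1.66e-05) relative to stage 55. As a ratio of means, stage 44 was 7.22 times stage 61. The call against stage 55 did not pass the fold threshold with counts thinned to the smallest library (-1.93) or with both copies summed (-1.87).

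pax3.S was at 55.2, 64.5 and 58.2 CPM at stage 44, 43.7, 60.0 and 45.8 at stage 46, 33.0, 28.96 and 28.9 at stage 55 and 13.4, 7.11 and 12.4 at stage 61. In this copy stage 55 already lay below the earlier stages without overlap, with -0.95 ± 0.20 (adjusted p = 0.0023) against stage 44, short of the fold threshold. At stage 61 it had fallen by 2.39 ± 0.22 against stage 44 (2.39e-08) and by 2.15 ± 0.21 against stage 46 (1.1e-07), and the latter was -1.95 without stage 61 replicate 2. Against stage 55 it was at -1.44 ± 0.21 (5.52e-05).

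pax6.L was at 65.7, 79.9 and 73.4 CPM at stage 44, 70.5, 80.7 and 63.9 at stage 46, 39.8, 30.5 and 39.9 at stage 55 and 21.1, 18.4 and 21.3 at stage 61. The samples of stages 44 and 46 overlapped, and each later stage lay below the one before it. Its log2 fold change of stage 55 against stage 44 was -0.97 ± 0.16 (adjusted p = 0.000366) and that of stage 61 -1.81 ± 0.17 (5.26e-08), with -0.84 ± 0.17 (0.00137) between stages 61 and 55. pax6.S was at 56.2, 60.6 and 58.8 CPM, 51.3, 52.9 and 49.4 CPM, 27.5, 27.7 and 35.7 CPM, and 29.97, 22.5 and 20.6 CPM at the same stages. It was lower at stage 55 by -0.93 ± 0.18 (0.00102) and at stage 61 by -1.22 ± 0.18 (1.65e-05) against stage 44, while stages 61 and 55 overlapped (-0.29, 95% interval -0.65 to 0.06).

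pax7.L was at 107, 85.1 and 76.1 CPM at stage 44, 79.4, 75.5 and 64.4 at stage 46, 60.7, 44.2 and 51.4 at stage 55 and 31.6, 28.5 and 52.4 at stage 61. pax7.S was at 69.9, 67.2 and 52.8 CPM, 48.1, 64.0 and 43.5 CPM, 41.7, 42.4 and 47.9 CPM, and 36.0, 29.6 and 28.1 CPM. Stage 61 differed from stage 44 by -1.21 ± 0.20 (adjusted p = 7.61e-05) for pax7.L and by -0.98 ± 0.18 (0.000252) for pax7.S, so that 42.0% and 49.3% of the stage 44 mean remained. For pax3.L and pax3.S 13.9% and 18.5% remained, and for pax6.L and pax6.S 27.7% and 41.6%.

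pax2.L was at 6.02, 4.29 and 4.78 CPM at stage 44, 8.91, 7.58 and 7.32 at stage 46, 3.96, 5.55 and 17.3 at stage 55 and 22.1, 10.4 and 14.7 at stage 61. The stage 61 samples lay above all samples of stages 44 and 46, and stage 55 replicate 3 lay apart from the other 2 of its stage. The log2 fold change of stage 61 against stage 44 was 1.70 ± 0.43 (adjusted p = 0.00397), short of the fold threshold, and against stage 46 it was 1.01 ± 0.42 (adjusted p = 0.0594). The hox markers summed to 0.138 to 1.67 CPM in the stage 61 midbrain, against 95.4 CPM or more in hindbrain at stage 46, and kidney markers to 28.3 to 44.4 CPM, against 42.5 to 52.7 at stage 44. The part of hindbrain or kidney tissue in the pax2.L levels over these stages was not tested.

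The summed markers of retina, which uses pax6, and of pigment cells, which arise from the pax3-expressing neural crest, also differed over these stages. The 16 retina and photoreceptor rows summed to 41.5 to 161 CPM at stage 44, 64.0 to 148 at stage 46, 72.0 to 76.2 at stage 55 and 5.36 to 8.60 at stage 61, where 3 of the rows were at 0, and rho.L, which encodes the rod opsin, had between 0 and 6 counts in each of these 12 libraries. The 10 pigment cell rows went through sums of 57.2 to 87.1, 44.6 to 64.9, 7.42 to 15.8 and 6.29 to 8.75 CPM. Muscle markers were at 31.9 to 223, 15.2 to 33.1, 11.5 to 28.9 and 12.7 to 18.5 CPM. The 12 forebrain marker rows summed to 353 to 370, 311 to 361, 181 to 234 and 132 to 141 CPM at these stages. The 7 neuronal marker rows summed to 3977 to 4435, 4227 to 5140, 4551 to 6374 and 5813 to 6703 CPM. In midbrain at stage 49 the forebrain rows summed to 95.4 and 126 CPM. The part of these tissues, forebrain tissue included, in the decline of pax6 and pax3 was not tested.

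Within each library, the pax3 counts (both copies summed) were 0.796 to 0.889 times the pax6 counts at stage 44, 0.711 to 0.930 times at stage 46, 0.976 to 1.015 times at stage 55 and 0.271 to 0.597 times at stage 61. The pax3 to pax7 ratio was 0.614 to 0.816, 0.679 to 0.976, 0.665 to 0.743 and 0.191 to 0.311 at these stages, so that stage 61 lay below every earlier sample. The pax7 to pax6 ratio was 0.975 to 1.45 at stage 44, 0.952 to 1.05 at stage 46, 1.31 to 1.52 at stage 55 and 1.32 to 1.92 at stage 61. These ratios are free of the scaling between libraries but not of gene length, so only their change from sample to sample can be read.

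Midbrain at stage 49 was set between stages 46 and 55 in a fit of all 15 midbrain samples. Its 2 samples had 24.6 and 14.4 CPM of pax3.L, 22.1 and 14.999 of pax3.S, 32.5 and 23.04 of pax6.L and 34.7 and 19.3 of pax6.S, each below every stage 46 sample. How many of all genes did not overlap between stages 49 and 46 was not counted. No copy was called between stages 49 and 46 (11% of 39130 genes) or between stages 55 and 49 (2.36%) by edgeR or DESeq2 (in either pair 0.696% of genes without stage 49 replicate 2 and 25.6% without replicate 1), and 5 and 2 copies had an unadjusted p below 0.05 in edgeR. Of the 39130 genes, 15260 and 10795 had an unadjusted p below 0.05 by edgeR in these pairs, and 8022 and 2072 an adjusted p below 0.05. DESeq2 called 7.09% of 49109 genes in at least 1 of the pairs. Relative to stage 46 the log2 fold change was -1.40 ± 0.32 (adjusted p = 0.00459) for pax3.L, -1.34 ± 0.25 (0.000325) for pax3.S, -1.28 ± 0.23 (0.000147) for pax6.L, -0.85 ± 0.24 (0.012) for pax6.S and -0.77 ± 0.25 (0.0268) for pax7.L, while the median of all genes was 0.44. Replicate 2 was a library with more genes detected and gave the lower value of the pair for all 6 copies of pax3, pax6 and pax7. For how many of all genes it did so was not counted. The neuronal markers summed to 4183 CPM in replicate 1 and 2660 CPM in replicate 2. Of the other Pax rows, pax8.L (0.731 and 3.71 CPM) and pax10.S (0 and 3.87 CPM) were called higher at stage 49 than at stage 46. Replicate 1, without that property, had 24.6 and 22.1 CPM of pax3.L and pax3.S, below all stage 55 samples (28.9 CPM or more). Its pax6.L (32.5 CPM), pax6.S (34.7), pax7.L (53.4) and pax7.S (45.9) lay within the stage 55 ranges. Of the 20 libraries it had the most genes detected at equal depth (32644). Its hox markers summed to 4.53 CPM, above every midbrain library of the other stages. Whether the pax3 levels of this 1 library reflect stage or library type was not tested.

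The single stage 66 sample, after metamorphosis, was compared with no test. It had 24.8 and 21.7 CPM of pax6.L and pax6.S and 27.6 and 26.2 CPM of pax7.L and pax7.S, 73.7% to 122% of the stage 61 means. Of these, pax6.L lay above every stage 61 sample, pax6.S within their range and both pax7 copies below every one. The 7 neuronal marker rows summed to 3230 CPM in this library, against 5813 to 6703 CPM at stage 61. pax2.L was at 3.59 CPM, 22.8% of its stage 61 mean and below every stage 61 sample. pax3.L was at 11.5 CPM, within the range of stage 61, and pax3.S at 0.898 CPM (5 counts), below all stage 61 samples.

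How the counts were shared between the copies of a gene was read as the percentage of the L copy in the L and S counts of a sample. For pax6 it lay between 41.3% and 64.4% in all 30 samples, with a median of 54.0%, and for pax7 between 45.7% and 86.6%, with a median of 56.1%. For pax3 the median was 45.2%. Since the copies may differ in length and in how many reads map to one place, a share of 50% is not a sign of equal expression and only its change from sample to sample was compared. The RefSeq table at hand gives pax3.S as an older name of pax3.L and the reverse, so the letters of the pax3 copies may be exchanged in other sources.

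pax3 departed most from a constant share. In the stage 66 midbrain 64 of 69 counts were from pax3.L, 92.8% (95% exact interval 83.9% to 97.6%), against 25.7%, 35.8% and 50.5% in the 3 stage 61 samples and 44.7% to 60.8% at stages 44 to 55. In forebrain at stage 46 the shares were 12.5%, 0% and 26%, on 8, 9 and 50 counts, with upper limits of 52.7%, 33.6% and 40.3%. Spinal cord at stage 46 had 28.3% to 44.6% and hindbrain 38.9% to 46.1%, against 49.5% to 56.5% in midbrain. Spinal cord and hindbrain thus lay below every midbrain sample of that stage.

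pax7 kept a share of 54.1% to 62.3% in stage 46 midbrain and 55.4% to 65.5% in hindbrain, and was at 86.6%, 71.9% and 59.4% in spinal cord, where the 3 samples had 67, 135 and 106 counts. The lowest of these was replicate 3, the library with more genes detected. pax6 was at 53.9% to 56.9% in midbrain at stage 44 and at 41.3%, 44.9% and 50.8% at stage 61, which did not overlap.

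**Figure D4:**
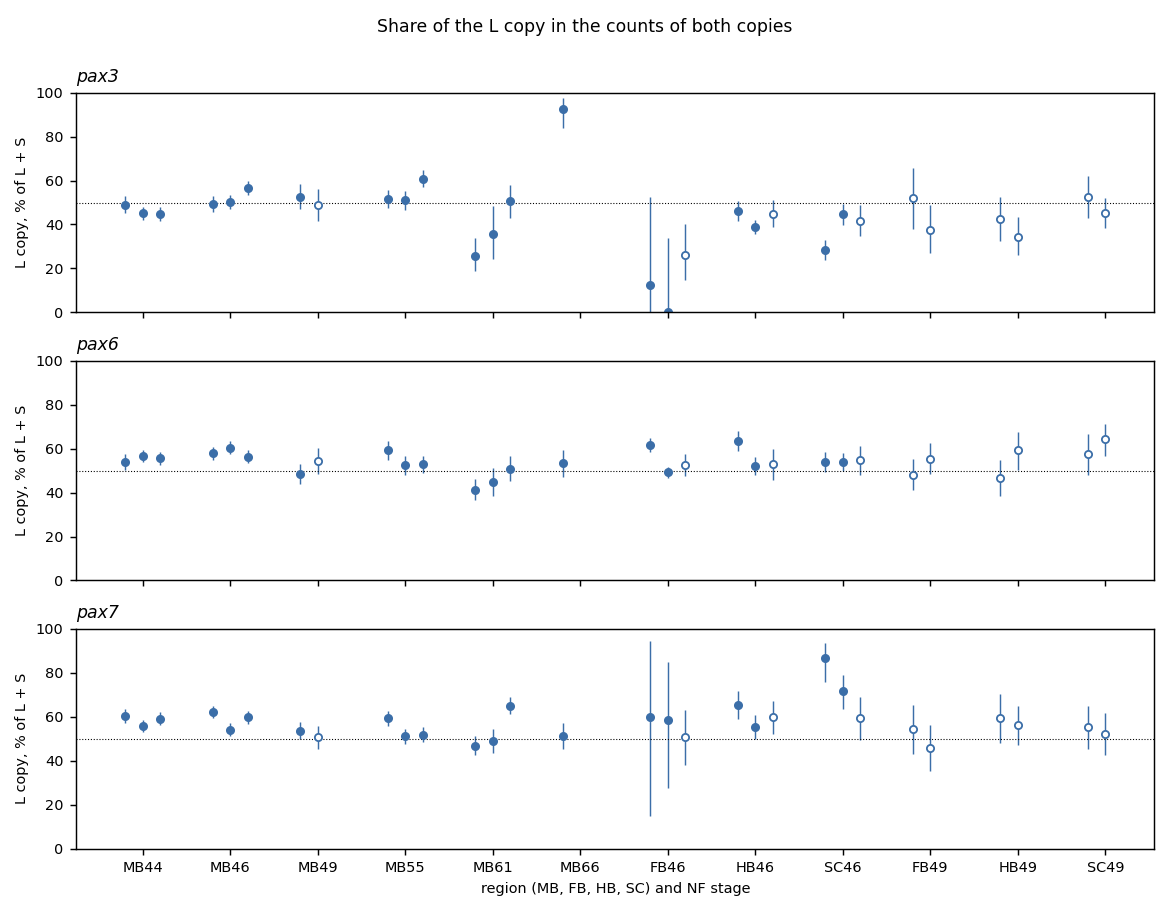
Share of the L copy in the counts of both copies (vertical axes, percent) for pax3, pax6 and pax7 in each sample, with its exact 95% binomial interval, by region (MB midbrain, FB forebrain, HB hindbrain, SC spinal cord) and stage. Open points are libraries with more genes detected, and the dotted line marks 50%. The pax3 share is 92.8% in the stage 66 midbrain. Its group mean is lowest in forebrain at stage 46, where the samples had 8, 9 and 50 counts, while pax6 stays between 41.3% and 64.4%.

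Over the means of the 12 groups, the log2 CPM of the copies of 1 gene correlated by 0.75 for pax3, 0.95 for pax6 and 0.97 for pax7 (Pearson's r, n = 12 groups, 6 of them midbrain, so the points share a tissue). pax7.L correlated with pax3.L by 0.84 and with pax6.L by -0.03, and pax2.L with pax6.L by -0.44. Among 21009 genes with a mean of at least 5 CPM, the 3 whose pattern was most like that of pax7.L were shox2.S (0.97), gata2.S (0.97) and irx1.S (0.97), and for pax7.S wnt3.L, dmbx1.L and LOC108708445. For pax2.L they were LOC108697493 (0.96), LOC108703563 (0.92) and the homeobox gene evx1.L (0.91).

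For pax3.L the most similar patterns were those of bnc2.S (0.93), irx3.L (0.92) and bcar3.L (0.92), and for pax3.S those of LOC108710302 (0.92), LOC108711836 (0.92) and mecom.L (0.91). pax6.L was followed most closely by lcor.S (0.95), tcf3.S (0.94) and ctbp2.S (0.94), and pax6.S by LOC108707141 (0.97), zbtb34.L (0.96) and zbtb34.S (0.94). No gene was among the 3 for more than 1 copy.

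Genes that are known to act with the Pax genes were counted over the midbrain stages in the same lists as above. Of 15 dorsal neural tube rows tested, 6 were called lower and 0 higher at stage 61 than at stage 44, and their median log2 fold change was -1.51, against 0.00 over all genes. They included lmx1a.L, a roof plate gene that went from 18.9 ± 3.89 CPM to 1.42 ± 1.19 (SD, n = 3; log2 fold change -3.74 ± 0.46). Of 29 rows that share or border pax6 domains, 8 were lower and 0 higher, with a median of -1.43, among them the proneural gene neurog2.L (31.6 to 2.68 CPM, -3.47 ± 0.43). Of 16 boundary rows 2 were lower and 0 higher, wnt1.L (-3.71 ± 0.62) and lmx1b.2.L (-3.03 ± 0.59), with a median of 0.01. Of all 26681 genes tested, 7.91% were called between stages 61 and 44. pax5.L was at 14.7 to 18.6 CPM at stage 44 and 9.10 to 14.7 at stage 61 and was called in no pair of stages.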

How the data were processed

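The deposited table holds raw read counts of 49109 genes in 30 samples. The authors made these counts from single-end reads with STAR 2.5.2a on the X. laevis v9.2 genome and HTSeq 0.11.1. The treatment of strand and of reads that map to several places is not given in the sources used here, so counts may pass between the copies of a gene. The authors' tables normalized with DESeq2 1.22.2 were not used. No sequences or coordinates were used.

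Libraries were scaled by TMM, genes with low counts were removed (filterByExpr, count 10, total 15), and pairs of groups were compared by edgeR 4.0.16 (R 4.3.3; quasi-likelihood test with robust dispersions, Benjamini-Hochberg adjustment over all genes tested). Separate fits were made of 12 midbrain samples, 12 stage 46 samples, 8 stage 49 samples and 15 midbrain samples with stages 49 and 66. Standard errors were taken from the F statistic and the log2 fold change. Intervals of shares are exact (Clopper-Pearson, 95%) and cover counting error only. Alternatives were relative log expression scaling, no filter, DESeq2 1.42.0, a replicate block, a threshold of 1, thinned counts, all 30 samples in one fit, summed copies and samples left out. All shares of genes called by DESeq2 are over the 49109 genes of the table, unfiltered, and have a wider base than those of edgeR.

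Named genes were all copies, up to 4 called genes of largest fold change per list, and the 3 genes of most similar pattern per copy (Pearson's r of log2 CPM, prior count 2, over 12 group means). One gene that this rule names is not reported here. The members and lists were chosen with earlier results of these data known. At stage 46 the deviations of same-numbered samples from their group means correlated by 0.243 to 0.753 among forebrain, hindbrain and spinal cord, and by 0.00125 to 0.0757 with midbrain. The labels give the numbers only. Replicate 3 of forebrain, hindbrain and spinal cord was a library with more genes detected, so pairing and library type cannot be told apart in these correlations. The main fits did not pair samples, and the replicate block was fitted as an alternative. The steps were tested on simulated counts, in which 200 genes were given a log2 fold change of 3. Of these, 99.5% were called in a pair of midbrain stages, 90.5% in a pair of stage 46 regions and 73% in a pair of stage 49 regions. The simulated libraries of a fit shared a mean profile, so libraries with more genes detected were not simulated.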

Additional observations from a re-analysis of the deposited data

How the results depend on the processing

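Of 1422 values of 70 log2 fold changes under the alternatives, 1320 kept their direction and side of the threshold, 43 lost and 57 gained a call, and 2 reversed. The reversed values were pax2.L in midbrain minus forebrain at stage 46 (1.01, and -0.029 with thinned counts) and pax7.L in midbrain stage 49 minus 46 (-0.77, and 0.022 with a covariate for the share of reads on genes nearly absent from midbrain, added after seeing the data). With a threshold of 1, 6 copies were called between midbrain stages (2 with a threshold of 2), as were 27.8% of all genes, and 3 at midbrain stage 49 (0), as were 16.2%. Between stage 49 regions the count of 0 was 1 with the background covariate (1.23% of all genes), and ranged from 0 to 2 with single samples left out: pax2.L without midbrain replicate 1 (1.26%), pax2.L and pax7.L without midbrain replicate 2 (37.5%). The deviations of same-numbered samples correlated by -0.0695 to 0.0638 over midbrain stages and -0.425 to 0.326 over stage 49 regions, and no main fit took samples as paired. With the replicate number as a block, the counts of called copies were 2, 4, 0 and 0, as without it. The shares of all genes called in some pair were 10.4%, 9.24%, 0.295% and 6.65%, against 10.8%, 5.62%, 0.755% and 11.7% without the block. With the block pax7.S was called at stage 46 (midbrain minus forebrain 4.53, adjusted p = 0.0445, spinal cord minus midbrain -3.45, 0.032), while pax2.L (hindbrain minus forebrain 4.15, adjusted p = 0.0567, spinal cord minus forebrain 3.30, 0.0622) and pax7.L (hindbrain minus forebrain, 0.0617) were not in these pairs. The block included midbrain, whose same-numbered samples correlated by only 0.00125 to 0.0757 with the other regions. Both pax7.S calls were in pairs with midbrain, and so in pairs with these low correlations. Replicate 3 of forebrain, hindbrain and spinal cord was a library with more genes detected, and that of midbrain was not. Pairing and library type therefore cannot be told apart in the correlations. Without the filter, pax7.L (hindbrain minus forebrain 0.0869, spinal cord minus midbrain 0.0529) and pax2.L (spinal cord minus forebrain 0.0597) had adjusted p above the threshold. Stage 49 has 2 samples per region, and the 10 libraries that detect more genes are also the shallowest, with at most 4937973 reads, which limits what can be read at a few CPM. The causes of these changes were not tested.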
